A study of Mus musculus with 6 samples.

Results

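The insulin-like growth factor (IGF) ligands, their receptors and their binding proteins were examined in podoplanin-positive cancer-associated fibroblasts (pCAFs) that had been divided by the surface protein Ly6C. The 10 genes were taken by symbol from the deposited table (Igf1, Igf2, Igf1r, Igf2r and Igfbp2 to Igfbp7), and all 10 were among its 12235 genes. Each sort gave 3 libraries made from mRNA 3′ ends. Over these genes a library held 2150531 to 2818269 reads in Ly6C+ and 1176909 to 1721480 in Ly6C−. Read numbers of the groups are therefore not on the same scale. Both groups came from breast tumours of BALB/c females injected at 8 weeks of age with 100000 4T1 mammary carcinoma cells in the mammary fat pad. The labels call these cells 4T1-GFP in one field and 4T1-luc in another. Both sorts gated on PDPN+ cells lacking Ter119, CD45 and EpCAM, and only the Ly6C gate differed. The labels do not say whether the libraries of a group came from separate mice or from pools, so the p-values measure the spread between these libraries only.

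IGF1 and IGF2 are secreted growth factors that signal through the receptor tyrosine kinase IGF1R and support growth and survival of many cell types. IGF2R, also the cation-independent mannose 6-phosphate receptor, takes up IGF2 for degradation and sorts lysosomal enzymes. Most IGF in tissue is held by binding proteins, which can withhold it from the receptor or carry and release it, and proteases that cut them free the ligand. IGFBP7 belongs to the same family by sequence but binds IGFs only weakly. Fibroblasts are a known tissue source of IGF1 and of several binding proteins.

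The family did not move as a block. Igf1, Igfbp4 and Igfbp6 were higher and Igfbp2 and Igfbp3 lower in Ly6C+ pCAFs, so 5 of the 9 tested members passed the test, against 17.1% of all 9646 genes tested. Of the members 3 were higher, where 9.41% of all genes were, and 2 were lower, where 7.66% were. The test was limma on log2(value + 1), with p-values adjusted over all genes by the Benjamini-Hochberg method and a threshold of 0.05. It called 908 genes higher and 739 lower in all (723 and 1204 when library totals set the scale, which shifted the median gene by −0.19 on the log2 scale). Igf1r, Igf2r, Igfbp5 and Igfbp7 did not pass, and Igf2 was too low to be tested. The members were proposed with earlier results of these data known.

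**Figure D1:**
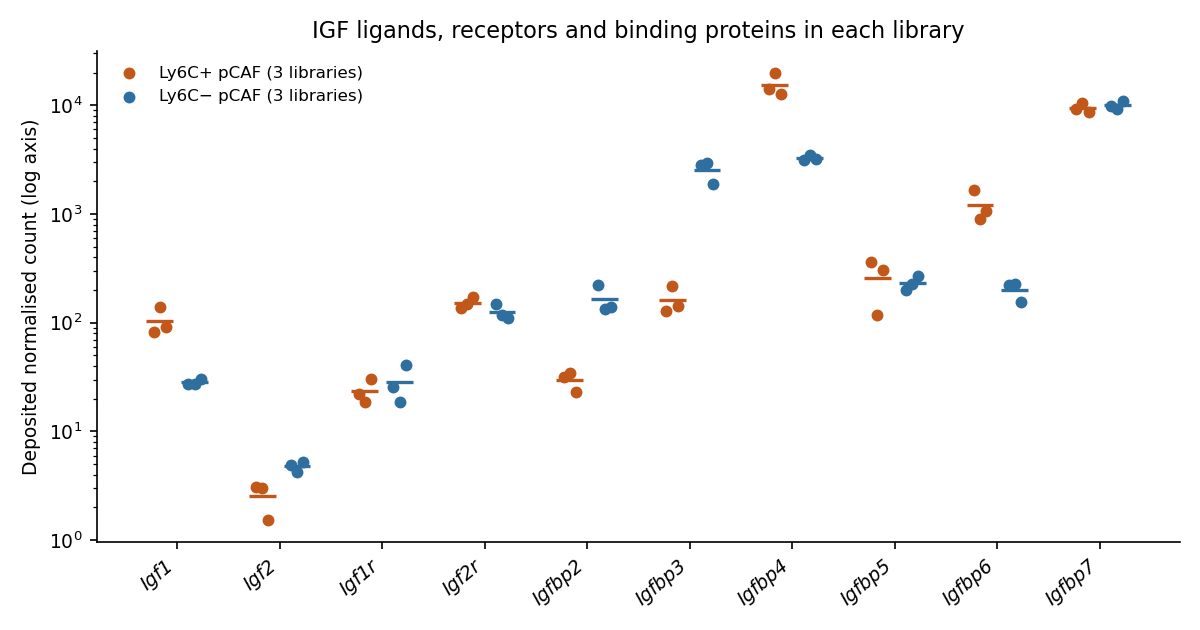
Deposited normalised counts (log axis) of the 10 genes, 1 point per library and a bar at the group mean, Ly6C+ in orange and Ly6C− in blue. The groups are apart for Igf1, Igfbp2, Igfbp3, Igfbp4 and Igfbp6, and Igf2 lies at or below 5.24 in every library.

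The promoter sequences of the 4 binding protein genes that passed are shown because these genes changed most and in opposite directions. Each is the 250 bases before the RefSeq start site on GRCm38.p6 (the assembly also called mm10), 5′ to 3′ on the strand of the gene. They lie at chr11:99040994-99041243 (plus strand) for Igfbp4, chr15:102143936-102144185 (plus) for Igfbp6, chr11:7213924-7214173 (minus) for Igfbp3 and chr1:72824230-72824479 (plus) for the first of 2 Igfbp2 windows. Capitals mark matches, on either strand, to 4 kinds of short motif. These are the RUNX core TGTGGT and a TATA box, searched as TATAAA and separately as TATATA. The others are the AP-1 site TGANTCA and the core ACGTG of hypoxia-inducible factors.
Igfbp4: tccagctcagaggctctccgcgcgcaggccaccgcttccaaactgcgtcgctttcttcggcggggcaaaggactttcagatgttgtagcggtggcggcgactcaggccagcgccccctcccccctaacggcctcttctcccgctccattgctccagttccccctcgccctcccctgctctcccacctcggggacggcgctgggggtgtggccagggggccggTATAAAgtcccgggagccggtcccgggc
Igfbp6: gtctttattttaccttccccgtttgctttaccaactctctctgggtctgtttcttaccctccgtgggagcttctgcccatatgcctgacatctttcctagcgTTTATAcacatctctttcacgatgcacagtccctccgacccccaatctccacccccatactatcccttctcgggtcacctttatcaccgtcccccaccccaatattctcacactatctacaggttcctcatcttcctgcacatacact
Igfbp3: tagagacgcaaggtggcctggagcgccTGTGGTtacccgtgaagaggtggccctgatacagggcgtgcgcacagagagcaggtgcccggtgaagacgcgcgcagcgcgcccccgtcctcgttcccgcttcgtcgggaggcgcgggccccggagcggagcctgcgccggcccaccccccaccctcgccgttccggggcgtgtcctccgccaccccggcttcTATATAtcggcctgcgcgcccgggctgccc
Igfbp2: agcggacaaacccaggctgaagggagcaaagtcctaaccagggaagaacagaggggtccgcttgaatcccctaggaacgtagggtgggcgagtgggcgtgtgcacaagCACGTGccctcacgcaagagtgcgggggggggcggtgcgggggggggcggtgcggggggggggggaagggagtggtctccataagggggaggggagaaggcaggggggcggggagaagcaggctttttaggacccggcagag
Igfbp4, which was higher in Ly6C+ pCAFs, and Igfbp3, which was lower, each had a TATA box match near the start, TATAAA at 28 to 23 bases and TATATA at 30 to 25 bases before it. The Igfbp3 window also held TGTGGT, the core recognised by RUNX factors, at 223 to 218 bases before the start. The Igfbp6 match to TATAAA lay on the other strand at 148 to 143 bases, and the Igfbp2 capitals are an ACGTG match on each strand that overlap. Of all 32851 RefSeq windows of 250 bases, 14.0% held TGTGGT, 12.4% TATAAA, 5.25% TATATA, 6.75% TGANTCA and 16.6% ACGTG. The SMAD core CAGAC, which 42.2% of windows held, was searched but not set in capitals, and of these 4 windows it was found in that of Igfbp6 alone, on the other strand at 206 to 202 bases. These are matches of letters and show no binding. RefSeq and GENCODE give the same start for Igfbp3 and Igfbp4, whereas their starts lie 176 bases apart for Igfbp6 and 23 bases apart for this Igfbp2 window.

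Of the ligand genes, only Igf1 was measured above the filter. Igf1 (chromosome 10, 87858265 to 87937042, plus strand, protein coding, mm10) stood at 83.0, 139 and 90.4 normalised counts in the Ly6C+ libraries and at 27.6, 27.2 and 30.2 in the Ly6C− libraries. Every Ly6C+ library was above every Ly6C− library, and Ly6C+ replicate 2 was the highest. The mean was 3.68-fold higher in Ly6C+ pCAFs (104 ± 30.5 against 28.3 ± 1.605, SD, n = 3 each; log2 fold change 1.81, SE 0.24; limma adjusted p = 0.000314), on 438 and 83 reads. Its antisense gene Igf1os was not in the table. In bulk libraries, more cells with Igf1 mRNA and more Igf1 mRNA per cell cannot be told apart. Igf2 (chromosome 7, 142650766 to 142666816, minus strand), an imprinted growth factor gene that is strongly expressed in the embryo, stood at 3.05, 3.01 and 1.55 in Ly6C+ and at 4.92, 4.25 and 5.24 in Ly6C− libraries. These values rest on 2 to 5 reads per library, and although they do not overlap, the difference did not pass when genes below the filter were tested too (log2 difference −0.74; limma adjusted p = 0.192). H19, the imprinted noncoding neighbour of Igf2, gave 256, 476 and 263 normalised counts in Ly6C+ against 339, 301 and 182 and missed the threshold (limma adjusted p = 0.616).

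Neither receptor gene passed. Igf1r (chromosome 7, 67952827 to 68233668, plus strand), the signalling receptor, stood at 21.96, 18.8 and 30.1 in Ly6C+ and at 25.6, 18.7 and 40.6 in Ly6C− libraries, which overlap. Its log2 fold change was −0.21 with a 95% interval of −0.92 to 0.50 (limma adjusted p = 0.740), and without Ly6C− replicate 3 it was 0.08. Igf2r (chromosome 17, 12682406 to 12769664, minus strand) stood at 137, 148 and 172 against 149, 117 and 110, a log2 fold change of 0.28 with an interval of −0.13 to 0.70 (limma adjusted p = 0.364). The groups overlap by 1 library, Ly6C− replicate 1. Igf2r overlaps the antisense noncoding gene Airn, which reached at most 6.71. The intervals of both receptors exclude a 2-fold change in either direction.

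Igfbp4 and Igfbp6 were the binding protein genes that rose in Ly6C+ pCAFs. IGFBP4 holds IGF until the protease PAPP-A cuts it. Its gene (chromosome 11, 99041244 to 99054392, plus strand) stood at 13983, 19765 and 12674 in Ly6C+ and at 3157, 3495 and 3179 in Ly6C− libraries. The lowest Ly6C+ library was well above the highest Ly6C− library, and the Ly6C− libraries lay close together. The mean was 4.72-fold higher (15474 ± 3773 against 3277 ± 189; log2 fold change 2.21, SE 0.20; limma adjusted p = 2.51e-05).

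IGFBP6 binds IGF2 in preference to IGF1. Igfbp6 (chromosome 15, 102144362 to 102149511, plus strand) stood at 1654, 891 and 1064 in Ly6C+ and at 223, 225 and 153 in Ly6C− libraries, again without overlap. Ly6C+ replicate 2, the highest library for Igfbp4, was the lowest of its group for Igfbp6. The mean was 6.001-fold higher in Ly6C+ pCAFs (1203 ± 400.2 against 200.5 ± 40.8; log2 fold change 2.55, SE 0.24; limma adjusted p = 3.51e-05).

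Igfbp3 and Igfbp2 fell. IGFBP3 is the main IGF carrier of blood plasma and also a secreted product of fibroblasts. Igfbp3 (chromosome 11, 7206086 to 7213923, minus strand) stood at 128, 218 and 141 in Ly6C+ and at 2811, 2951 and 1875 in Ly6C− libraries. All Ly6C− libraries were far above all Ly6C+ libraries, and this was the largest difference among the 9 tested members: 15.7-fold higher in Ly6C− pCAFs (162 ± 48.5 in Ly6C+, 2546 ± 585 in Ly6C−; log2 fold change −3.97, SE 0.24; limma adjusted p = 1.47e-06).

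IGFBP2 carries an integrin-binding motif besides its IGF-binding part. Igfbp2 (chromosome 1, 72824503 to 72852474, plus strand) stood at 31.7, 34.6 and 23.2 in Ly6C+ and at 221, 134 and 139 in Ly6C− libraries. The groups were apart, with Ly6C− replicate 1 the highest. The mean was 5.52-fold higher in Ly6C− pCAFs (29.8 ± 5.93 in Ly6C+, 165 ± 49.3 in Ly6C−; log2 fold change −2.41, SE 0.25; limma adjusted p = 6.07e-05).

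Igfbp5 and Igfbp7 did not pass. Igfbp5 (chromosome 1, 72857932 to 72874884, minus strand), whose protein binds to extracellular matrix, is the tail-to-tail neighbour of Igfbp2 with 5457 bases between their ends. It stood at 360.5, 117 and 302 in Ly6C+ and at 202, 229 and 267 in Ly6C− libraries. The Ly6C− values lie inside the range of the Ly6C+ values, which spread 3.09-fold with Ly6C+ replicate 2 the lowest. Its log2 fold change was 0.01 (95% interval −0.75 to 0.78; limma adjusted p = 0.988). Its sign turned in 4 settings, −0.30 without Ly6C+ replicate 1, −0.17 without Ly6C+ replicate 3, −0.08 without Ly6C− replicate 1 and −0.18 with libraries scaled to their totals, and it was 0.51 without Ly6C+ replicate 2 (limma adjusted p = 0.164).

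Igfbp7 (chromosome 5, 77349240 to 77408041, minus strand), which encodes a secreted, matrix-associated protein also made by vascular cells, stood at 9178, 10478 and 8668 in Ly6C+ and at 9915, 9319 and 10996 in Ly6C− libraries. The groups overlap and each spread by 1.21-fold or less. The log2 fold change was −0.10 (95% interval −0.49 to 0.30; limma adjusted p = 0.787). Polr2b, an antisense overlapping gene, reached at most 44.6.

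**Figure D2:**
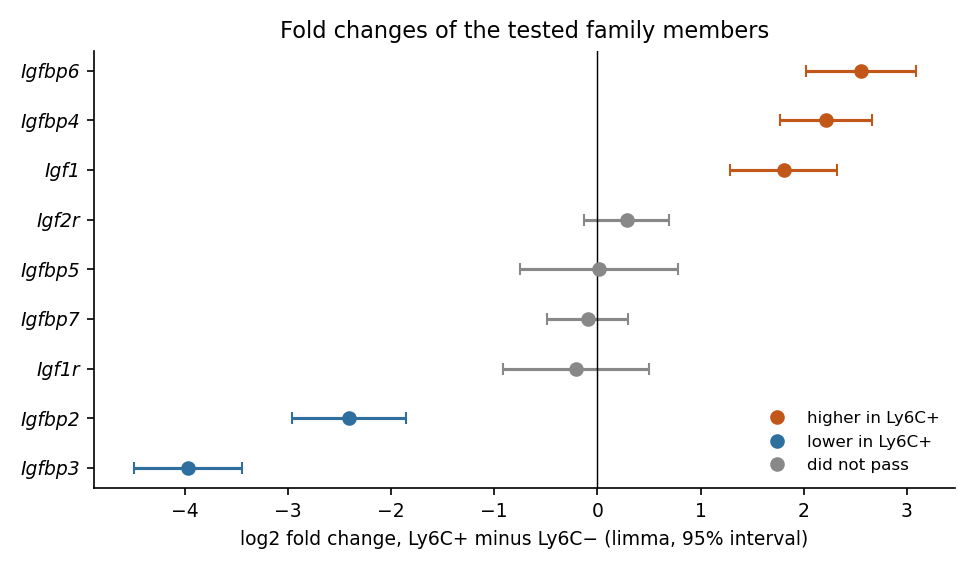
log2 fold change (Ly6C+ minus Ly6C−) of the 9 tested members from limma, points with 95% intervals, orange higher, blue lower and grey not passed. Intervals run from −4.50 to −3.45 for Igfbp3 and from 2.02 to 3.08 for Igfbp6, and the 4 grey intervals include 0.

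Without any overlap of groups were 5 of the 9 tested members, and Igf2 besides, against 33.1% of all tested genes. The 5 calls held in each of 18 alternative settings, with the lowest and highest log2 fold change at 1.58 and 1.95 for Igf1, 1.76 and 2.34 for Igfbp4, 2.30 and 2.74 for Igfbp6, −4.25 and −3.82 for Igfbp3 and −2.61 and −2.17 for Igfbp2. The other 4 tested members passed in none of the 18.

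Because the binding proteins went both ways, the make-up of their summed value differed more than the sum. The values of Igfbp2 to Igfbp7 added up to 25336, 31503 and 22873 in Ly6C+ and to 16530, 16351 and 16609 in Ly6C− libraries, 1.61-fold higher in Ly6C+ (1.40-fold when scaled to library totals). In reads the 6 genes took 1.38% to 1.84% of a Ly6C+ library and 1.08% to 1.14% of a Ly6C− library. With 3 libraries against 3, no exact permutation test of such a sum can give a p below 0.1, so the sums are described only.

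Igfbp4 made up 55.2%, 62.7% and 55.4% of the sum in Ly6C+ and 19.1%, 21.4% and 19.1% in Ly6C− libraries. Igfbp3 made up 0.506%, 0.692% and 0.618% in Ly6C+ against 17.01%, 18.05% and 11.3% in Ly6C− libraries. The share of Igfbp7 was 33.3% to 37.9% in Ly6C+ and 56.99% to 66.2% in Ly6C− libraries, although its own value did not pass the test, since the sum around it differed. Igfbp6 held 2.83% to 6.53% in Ly6C+ and 0.924% to 1.37% in Ly6C− libraries. The share of Igfbp5 overlapped between the groups, at 0.370% to 1.42% and 1.22% to 1.61%.

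Without the weak binder Igfbp7, a sum added after the values were seen, Igfbp4 made up 86.5% to 94.0% in Ly6C+ and 47.7% to 56.6% in Ly6C− libraries, and Igfbp3 0.793% to 1.04% and 33.4% to 42.5%. That sum was 2.67-fold higher in Ly6C+ pCAFs. The within-library log2 ratio of Igfbp4 to Igfbp3, which no scaling of a library can move, was 6.77, 6.503 and 6.49 in Ly6C+ libraries, against 0.17, 0.24 and 0.76. The shares are of 3′ end reads and say nothing of protein.

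**Figure D3:**
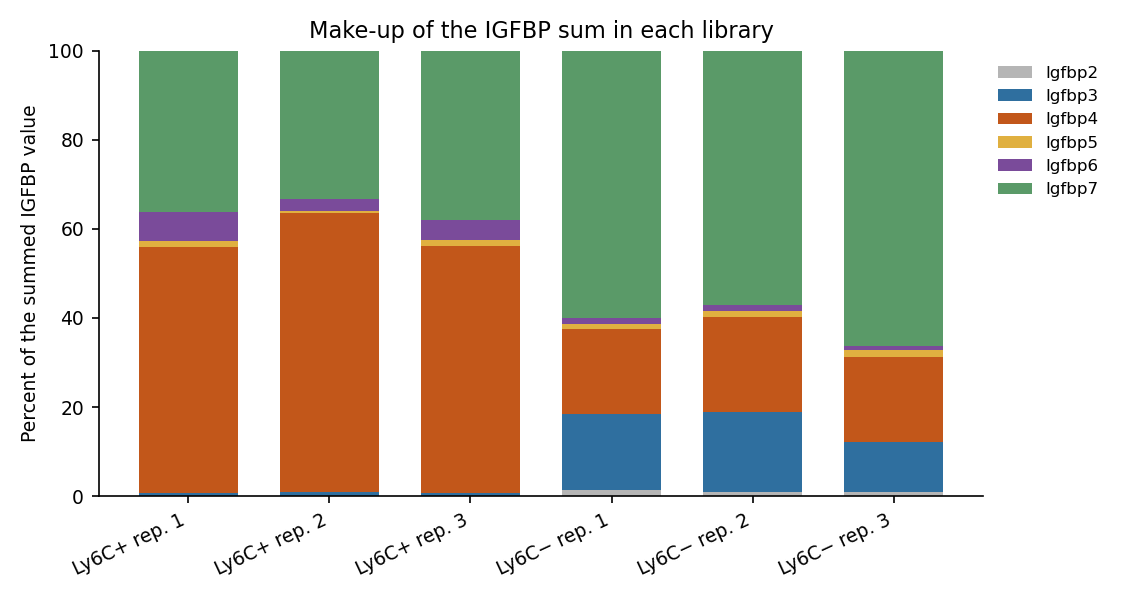
Share (percent) of each binding protein gene in the summed Igfbp2 to Igfbp7 value, 1 bar per library. Igfbp4 (orange) takes 55.2% to 62.7% of the 3 Ly6C+ bars and 19.1% to 21.4% of the 3 Ly6C− bars, where Igfbp3 (blue) takes 11.3% to 18.05%.

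The 2 ligand genes together stood at 86.0, 142 and 91.9 in Ly6C+ and at 32.5, 31.5 and 35.4 in Ly6C− libraries, 3.22-fold higher in Ly6C+ and nearly all of it Igf1. The ligand sum and the binding protein sum were thus both higher in Ly6C+ pCAFs, and their receptors did not pass the test.

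Genes around the binding proteins were taken from lists. Of 14 proteases that can cut binding proteins and inhibitors of such proteases, 12 were in the table and 10 were tested, 2 of which rose and 2 fell. These 4 of 10 stand against 17.1% of all genes called, with a median log2 fold change of 0.05 against −0.00070. The genes of PAPP-A and its homologue, Pappa and Pappa2, lay below the filter. Pappa had 9 reads in either group (mean values 2.22 in Ly6C+ and 2.71 in Ly6C−). Pappa2 had 2, 4 and 18 reads in the Ly6C+ libraries and 2 in each Ly6C− library. Stc1, which encodes stanniocalcin-1, an inhibitor of PAPP-A, stood at 3.05, 2.26 and 1.55 in Ly6C+ and at 24.6, 19.6 and 26.2 in Ly6C− libraries. On 10 reads in Ly6C+ and 68 in Ly6C−, it was 10.3-fold higher in the latter (log2 fold change −2.91, limma adjusted p = 0.000314). It was not tested where the mean had to reach 20. The related Stc2 did not pass (16.8 ± 9.88 against 23.4 ± 0.370). Timp1, a metalloproteinase inhibitor, was 2.34-fold higher in Ly6C− pCAFs (5135 ± 473 in Ly6C+, 12020 ± 2254 in Ly6C−), while Timp2, of the same inhibitor family, was 2.23-fold higher in Ly6C+ pCAFs (3090 ± 443 against 1388 ± 105). Plat, tissue plasminogen activator, was 1.85-fold higher in Ly6C+ pCAFs (limma adjusted p = 0.0138), a call that ended in 4 of 18 settings (0.0505 without the filter, 0.0756 after quantile normalization, 0.0511 scaled to library totals and 0.0599 without the variance trend). The serine protease gene Htra1 stood at 664 ± 170 and 737 ± 130 and did not pass.

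None of 7 tested other genes of the system passed in limma (2 at an unadjusted p under 0.05, and 0 in edgeR and DESeq2), of 15 listed and 10 in the table. With the replicate number as a block, limma called 1 of them and edgeR 2, all higher in Ly6C+ pCAFs. The 7 tested genes include the insulin receptor gene Insr (16.4 ± 6.13 against 13.5 ± 3.77) and the mannose 6-phosphate receptor gene M6pr (201 ± 9.44 against 229 ± 24.1). Insr and M6pr passed in no setting. Also tested was the IGFBP3 receptor gene Tmem219 (148 ± 6.61 against 104 ± 16.6, limma adjusted p = 0.0814). Tmem219 passed with the block in limma (adjusted p = 0.0477) and in edgeR (0.0433). Lrp1, which encodes an endocytic receptor, stood at 4437 ± 193 against 3234 ± 353 (limma adjusted p = 0.0823) and passed in edgeR with the block (0.0384). The growth hormone axis, which drives Igf1 transcription through STAT5 in liver, had 1 of 6 tested genes higher and 1 lower, or 33.3% against 17.1% of all genes. Stat5b was 1.65-fold higher in Ly6C+ pCAFs (limma adjusted p = 0.0384) and Socs2, a feedback inhibitor of that axis, 1.72-fold higher in Ly6C− pCAFs (0.0446). The Stat5b call ended in 9 of 18 settings and the Socs2 call in 7. That of Stat5b was lost without any 1 of Ly6C+ replicates 1, 2 and 3 (limma adjusted p = 0.109, 0.131 and 0.0690) or of Ly6C− replicates 2 and 3 (0.169 and 0.0518). That of Socs2 was lost without the same libraries (0.169, 0.0537, 0.0682, 0.152 and 0.110). Stat5b and Socs2 were also lost in limma without the filter (adjusted p = 0.0508 and 0.0976) and without the variance trend (0.0666 and 0.112). Stat5b alone was lost in limma scaled to library totals (0.109) and in DESeq2 (0.0815). The growth hormone receptor gene Ghr, picked out once its values were known, gave 51.8, 42.8 and 27.8 against 13.8, 27.2 and 18.4 and missed the threshold (limma adjusted p = 0.0520), but it passed in 6 of 18 settings. These were limma with the replicate number as a block (adjusted p = 0.0341), edgeR without and with that block (0.0498 and 0.0284), a pseudocount of 5 (0.0496), and limma without Ly6C+ replicate 3 (0.0322) or Ly6C− replicate 2 (0.0408).

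Downstream of the receptor, among adaptors and PI3K-AKT genes 2 of 20 tested rose and 1 fell (median −0.06), of 29 listed and 27 in the table. Grb10, an adaptor that restrains insulin and IGF receptor signalling, was 1.98-fold higher (means 339 ± 47.7 and 171 ± 41.2; limma adjusted p = 0.00662) and Irs2, a receptor substrate that couples to PI3K, 1.88-fold higher (means 249.6 ± 37.9 and 133 ± 21.2; limma adjusted p = 0.00688). Inppl1, the inositol phosphatase SHIP2, was 1.59-fold higher in Ly6C− pCAFs (limma adjusted p = 0.0146), a call that ended without Ly6C+ replicate 2 (0.0774), without Ly6C− replicate 2 (0.0554) and without the variance trend (0.0585). The mTORC1 branch had 0 of 12 tested genes past the limma test (1 at an unadjusted p under 0.05, and 0 in edgeR and DESeq2). With libraries scaled to their totals 1 passed, Eif4ebp1, which encodes a repressor of translation initiation and was lower in Ly6C+ pCAFs (limma adjusted p = 0.0403, against 0.143 as deposited). Of 14 tested FoxO factors and genes listed as FoxO targets, 2 rose and none fell in limma, with a median of 0.40: Trib1, a pseudokinase, was 2.26-fold higher (936 ± 109 against 414 ± 39.96) and Txnip, the thioredoxin-interacting protein, 2.18-fold higher in Ly6C+ pCAFs (329 ± 22.3 against 151 ± 38.1). Without Ly6C− replicate 1, 4 genes of this list passed, 3 higher and 1 lower. The shares called, 15.0% for adaptors and 14.3% for the FoxO list, are close to the 17.1% of all genes tested. The mTORC1 branch, with 0 of 12, and the other IGF system genes, with 0 of 7, lay below that share on few genes. Whether they differ from it was not tested.

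**Figure D4:**
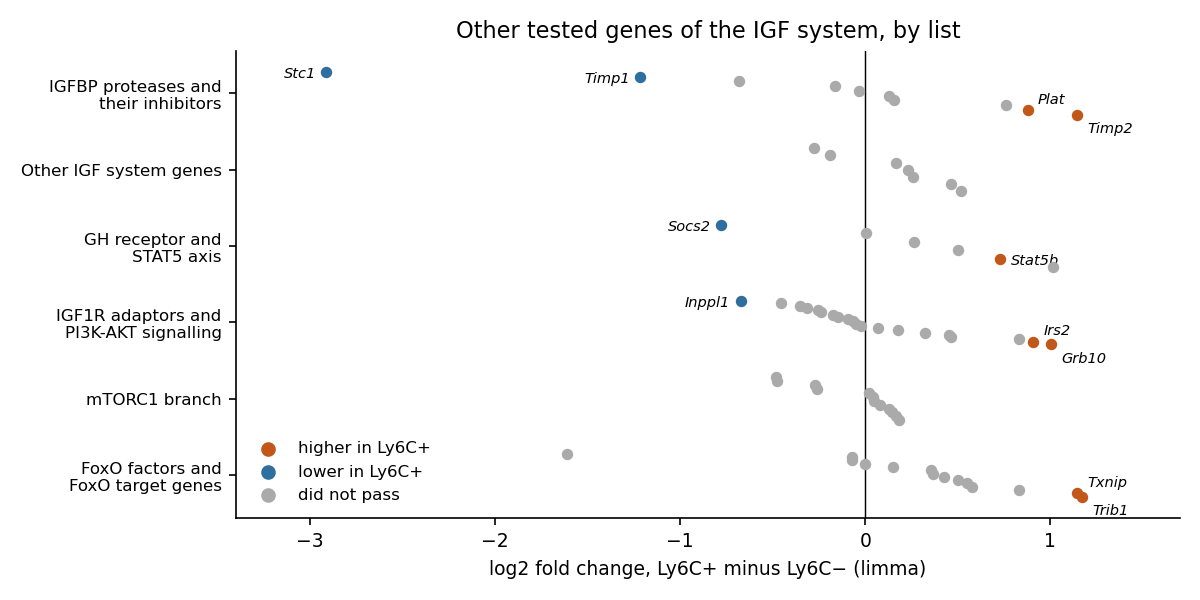
log2 fold change (Ly6C+ minus Ly6C−, limma) of each tested gene of 6 lists around the IGF family, 1 point per gene, with names for genes that passed. Stc1 at −2.91 lies farthest from 0, and the mTORC1 branch and the other IGF system genes have no coloured point.

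The genes nearest to a member were those with the smallest root mean square distance between centred log2 values over the 6 libraries, among genes with a mean of at least 20. For Igf1 they were the chemokine gene Cxcl5 (distance 0.183), the GABA receptor subunit gene Gabra3 (0.188) and Epas1, which encodes HIF-2alpha (0.189). For Igfbp6 they were Lcn2, lipocalin-2 (0.153), Cd3e (0.192) and the actin-severing protein gene Gsn (0.220). For Igfbp3 they were 2 contractile genes, Myl9 (0.245) and Tagln (0.259), and the peptide hormone gene Ucn2 (0.270). For Igf2, on its few reads, they were Prickle3, Rasl12 and Eml4 (0.102 to 0.112).

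All 9 fibroblast markers checked were in the table, with summed values of 67405 to 76351 in Ly6C+ and 45816 to 60424 in Ly6C− libraries, 5 of them higher in Ly6C+ pCAFs and 4 not passing. Markers of other cells moved with some members. Of 10 pericyte and smooth muscle markers, summed at 315 to 444 in Ly6C+ and 872 to 1372 in Ly6C− libraries, 5 of 8 tested fell with Igfbp3 and Igfbp2, and 1, Kcnj8, rose. The 5 were Cspg4 (26.9 ± 1.80 against 367 ± 39.1), Des (21.5 ± 8.37 against 360.5 ± 306), Notch3 (15.3 ± 4.49 against 43.0 ± 9.26), Myh11 (1 read against 75) and Mcam (5 reads against 36). The 2 that did not pass were Abcc9 (30.1 ± 18.6 against 11.6 ± 4.93) and Ndufa4l2 (168 ± 54.1 against 238 ± 47.5). Both passed in limma with the replicate number as a block (adjusted p = 0.0181 and 0.0295). Higd1b was at 0 in all 6 libraries.

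Of 10 epithelial markers, summed at 15.2 to 48.7 and 119 to 377, 2 of 4 tested fell, the keratin genes Krt19 (3.92 ± 0.938 against 45.2 ± 17.8) and Krt14 (3 reads against 94). Krt18 and Krt8 were uneven in Ly6C− libraries, at 183, 97.8 and 20.98 and at 81.7, 34.03 and 6.56. Their Ly6C+ values reached at most 27.8 and 10.04. Krt18 and Krt8 did not pass (limma adjusted p = 0.0713 and 0.114). Both passed in edgeR (0.0238 and 0.024) and in limma without Ly6C− replicate 3 (0.00541 and 0.00231). Krt5, below the filter, had 0 reads in Ly6C+ and 30 in Ly6C− libraries. Epcam, whose protein was gated out, reached at most 2.95. Endothelial markers, 9 of 12 in the table, summed to 287 to 351 and 286 to 397, with 2 of 7 tested higher and 3 lower. Their defining gene Pecam1 reached at most 4.25. The 2 higher were Plvap (91.6 ± 8.91 against 15.8 ± 3.89) and Tek (81 reads against 3). Plvap passed in 18 of 18 alternative settings and Tek in 17 of 17. The 3 lower, Kdr, Egfl7 and Esam, passed in 11 of 18, 12 of 17 and 9 of 17. Kdr stood at 8.54, 4.51 and 7.73 in Ly6C+ and at 88.6, 94.4 and 10.5 in Ly6C− libraries. In either direction, 55.6% of tested fibroblast, 75% of pericyte and smooth muscle and 71.4% of endothelial markers were called. These shares, and the 2 of 4 epithelial markers, lay above the 17.1% of all genes tested, on few genes. Whether they differ from it was not tested.

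Macrophages and adipocytes also express Igf1. Of macrophage markers, 10 of 12 in the table and summed at 111 to 348 and 44.2 to 145, which overlap, 1 of 6 tested was higher, near the share of all genes called. It was Lyz2, at 264, 98.5 and 27.0 against 25.6, 1.701 and 3.93 (limma adjusted p = 0.0124). Its call ended without Ly6C+ replicate 1 (0.0746), Ly6C− replicate 2 (0.0570), the filter (0.0775) or the variance trend (0.051). Csf1r stood at 28.7, 35.3 and 27.0 against 31.5, 20.4 and 28.8. Ptprc had 8, 2 and 2 reads in the Ly6C+ libraries (at most 4.88) and was at 0 in all Ly6C− libraries. Tyrobp was 3.28-fold higher in Ly6C+ pCAFs but did not pass (limma adjusted p = 0.121). Tyrobp passed with the block in limma (0.0229) and without Ly6C− replicate 1 (0.00634). Fcer1g and C1qc, below the filter, had means 1.87-fold and 1.95-fold higher in Ly6C+, with overlapping libraries. Of the macrophage markers in the table, C1qa alone had a lower mean in Ly6C+ (11.8 against 12.6). Adipocyte markers, 5 of 8 in the table, summed to 65.7 to 135 and 8.51 to 13.8. Most of that was Fabp4, the only one tested and higher in Ly6C+ pCAFs, at 75.0, 128 and 58.7 against 13.8, 8.51 and 9.18. Cfd was at 0 in all 6 libraries, Adipoq at most 0.773 and Cidec at most 0.752. Plin4, also below the filter, had 3, 8 and 8 reads in the Ly6C+ libraries and 0 in each Ly6C− library. The part of other cells in the differences of the members was not tested.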

How the data were processed

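Values in the table, as the authors deposited it, are normalised counts (a signal, never negative): reads per gene over a single factor for each library. STAR 2.4.2a, HTSeq and bcl2fastq, with the mm10 build, are listed per the submitters' processing notes. The annotation, strand handling, molecular tags and the tool for the factors are not given in the sources used here. All values (100%) were whole multiples of a step per library within a tolerance of 0.001, so reads were recovered.

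Genes with a mean value of at least 5 (9646 of 12235, with 99.6% of reads) were tested with limma 3.58.1 (R 4.3.3) on log2(value + 1) with a mean-variance trend and no block. Log2 fold changes on this scale understate the change of low genes, and folds are ratios of group means. The precision of low genes is limited by their reads.

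Alternatives were pseudocounts of 0.5 and 5, a minimum mean of 20 or none, quantile normalization, recomputed factors, scaling to totals, no trend, the replicate number as a block, edgeR 4.0.16, DESeq2 1.42.0 and each library left out. The members, lists and rules were chosen with earlier results of these data known. Text names all members and up to 4 called genes per list of the IGF system. It names some called cell markers and 3 nearest genes for Igf1, Igf2, Igfbp6 and Igfbp3 (the binding proteins with the largest rise and fall). Ghr and single genes that did not pass were named after their values were seen. Coordinates came from GENCODE M21 and promoters from RefSeq, matched by symbol for 10 of 10 members. The pipeline was tested on simulated data.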

Additional observations from a re-analysis of the deposited data

How the results depend on the processing

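The 5 calls of family members kept their direction and stayed past the threshold in all 18 settings, with 3 higher and 2 lower in each, while the number of genes called over the whole table ran from 1121 to 2113. With 1 library left out at a time it ran from 1121 to 1728 and the number of members called was 5 each time. The fold of the binding protein sum ran from 1.46 to 1.72 and that of the ligand sum from 2.69 to 3.53. With the replicate number as a block, limma called 2088 genes and edgeR 2113 and the same number of members, 5. The deviations of same-numbered libraries correlated at 0.13, 0.05 and 0.17. With 3 libraries per group, such values cannot decide whether the numbers pair the libraries. Each library correlated best with the library of its own number, which is a hint from the data and not from the design. Of members that did not pass, the log2 fold change of Igf1r ran from −0.46 to 0.079 with 1 library left out and turned positive without Ly6C− replicate 3, and that of Igfbp5 ran from −0.30 to 0.51 and turned to −0.18 when scaled to library totals and to values from −0.30 to −0.08 without Ly6C+ replicate 1, Ly6C+ replicate 3 or Ly6C− replicate 1. The cause was not tested. In the growth hormone list the number called fell from 2 to 0 without Ly6C+ replicate 1, Ly6C+ replicate 2 or Ly6C− replicate 3. It was also 0 without the filter and without the variance trend. It was 1 in DESeq2, with libraries scaled to their totals, and without Ly6C+ replicate 3 or Ly6C− replicate 2. With a pseudocount of 5, with the block in limma, and in edgeR without and with the block, it was 3. With the block, 1 other IGF system gene passed in limma and 2 in edgeR, where none did without it, and scaling to totals called 1 mTORC1 gene. Depth limits Igf2, Pappa, Pappa2 and the Ly6C+ values of Stc1, which rest on few reads per library.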
